A study of Mus musculus with 27 samples.

Results

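The annexins are calcium-dependent, phospholipid-binding proteins, and their mRNAs were followed here in NMuMG cells, a normal mouse mammary epithelial line that undergoes an epithelial-to-mesenchymal transition under TGF-β. The set held Anxa1, Anxa2, Anxa3, Anxa4, Anxa5, Anxa6, Anxa7, Anxa8, Anxa10 and Anxa11, which are 10 of the 24892 genes listed in the 2 RNA-seq tables. The family was chosen by the values of Anxa10, whose mRNA was much lower after TGF-β and which differed in lamin B1 knockdown cells, so the values of Anxa10 are given as a description with no test. The other 9 genes entered as members of the same family, and the list was drawn up with earlier results of these data known. Anxa9 and Anxa13, the remaining annexins of the tables, carry the family name but were not listed. They were kept beside the set as the rest of the family.

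RNA-seq was available for parental NMuMG cells, for NMuMG cells carrying an irrelevant (control) shRNA and for NMuMG cells carrying an shRNA against lamin B1 (lamin B1 KD). Each kind of cell was untreated (0 h) or treated with TGF-β at 1 to 5 ng/ml for 8 h or 24 h, with 2 libraries in each of the 9 groups. The shRNAs came by lentivirus under puromycin selection, the knockdown was kept partial, and control and KD cells differ from the parental cells by infection and selection as well as by shRNA. Lamin B1 ChIP-seq of an enriched euchromatin fraction and ATAC-seq were made in parental cells, with 1 library per time point.

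Annexins bind negatively charged membrane lipids through a repeated core domain when calcium rises. Each member adds its own amino-terminal tail, which in several members meets S100 proteins or other EF-hand partners. They are known for membrane repair, for traffic of endosomes and secretory vesicles, and for linking membranes to the actin cortex. In epithelia, Anxa4 and Anxa13 are found near apical membranes, Anxa2 works with S100a10 at the cell surface, and Anxa10 is an atypical member that has lost most of its calcium sites and is best known from the stomach.

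The upstream sequences of the members differed widely, and the windows of the genes on which the results turn are shown here from the mm9 genome with GENCODE M1 gene models, 5′ to 3′ on the strand of the gene, each covering the 250 bases before the annotated transcription start site (TSS). Capitals mark matches on either strand to TGANTCA (the AP-1 site), CAGAC (the SMAD box), CAGGTG (the E-box bound by Snail and Zeb factors), GGGCGG (the GC box) or TATAAA (the TATA box). The Anxa10 window lies on chromosome 8, minus strand (chr8:64601916-64602165), and holds TATAAA and TGANTCA.
Anxa10 upstream: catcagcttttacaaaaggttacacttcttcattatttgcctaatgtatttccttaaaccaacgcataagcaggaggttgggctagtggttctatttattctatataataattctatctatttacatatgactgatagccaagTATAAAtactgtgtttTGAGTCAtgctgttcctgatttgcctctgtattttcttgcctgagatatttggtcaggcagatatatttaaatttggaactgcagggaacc
The Anxa2 window on chromosome 9, plus strand (chr9:69301177-69301426), is shown because it is the other member window with TGANTCA.
Anxa2 upstream: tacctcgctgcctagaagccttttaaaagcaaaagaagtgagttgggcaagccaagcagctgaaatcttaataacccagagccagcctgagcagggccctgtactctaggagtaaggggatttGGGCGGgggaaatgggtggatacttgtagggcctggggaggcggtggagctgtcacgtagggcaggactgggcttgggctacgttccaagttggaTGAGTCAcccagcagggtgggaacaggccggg
The Anxa4 window on chromosome 6, minus strand (chr6:86743579-86743828), lies under the lamin B1 peak of 8 h described later.
Anxa4 upstream: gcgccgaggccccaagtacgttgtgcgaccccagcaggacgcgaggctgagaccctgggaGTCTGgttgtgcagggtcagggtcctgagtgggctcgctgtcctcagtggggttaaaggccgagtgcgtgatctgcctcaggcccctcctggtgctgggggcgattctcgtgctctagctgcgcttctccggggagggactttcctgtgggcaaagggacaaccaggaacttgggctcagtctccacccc
The Anxa6 window on chromosome 11, minus strand (chr11:54846948-54847197), belongs to the member with the largest rise and has overlapping GC boxes.
Anxa6 upstream: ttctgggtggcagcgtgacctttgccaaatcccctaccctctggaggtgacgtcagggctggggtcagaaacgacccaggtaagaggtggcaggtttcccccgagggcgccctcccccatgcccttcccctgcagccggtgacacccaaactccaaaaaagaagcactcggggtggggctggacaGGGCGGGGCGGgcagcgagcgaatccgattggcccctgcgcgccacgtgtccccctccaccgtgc
The last sequence is the central 200 bases of the ATAC peak in an Anxa10 intron, on the plus strand of chromosome 8 (chr8:64597097-64597296).
Anxa10 ATAC peak centre: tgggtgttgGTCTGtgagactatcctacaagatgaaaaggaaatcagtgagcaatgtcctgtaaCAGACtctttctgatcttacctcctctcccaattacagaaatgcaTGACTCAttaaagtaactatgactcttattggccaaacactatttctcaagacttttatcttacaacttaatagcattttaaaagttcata

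The G+C content of the Anxa10 window was 34.8%, the lowest of the 10 members and below the lower quartile of 46.4% over 21210 windows of placed genes. Anxa1 (40.8%) and Anxa7 (42.4%) were also below that quartile, whereas Anxa6 reached 66.4% and the median of all genes was 54.4%. TATAAA was found in the Anxa10 window alone among the members, against 12.01% of all windows. TGANTCA was found in Anxa2 and Anxa10, against 6.06% of all windows, GGGCGG in 5 members against 40.4%, CAGAC in 3 members (Anxa4, Anxa5 and Anxa8) against 40.9%, and CAGGTG in Anxa11 alone against 16.8%. Outside the set, the Anxa13 window also held TATAAA, and CAGGTG at 2 places. The Anxa10 intronic peak centre held TGANTCA once and CAGAC at 2 places, letters present in 32.0% and 43.3% of the peak centres of the same list. These matches describe the letters of the windows and do not show a bound site.

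Values are FPKM, fragments scaled to transcript length and library size, and so can be set side by side between genes. The 2 tables were prepared separately, and levels across them are given side by side without a test. All 10 members were above 0 in all 18 libraries, and all 10 passed the filter of at least 1 FPKM in at least 2 libraries in both tables. Members together made up 0.372% to 0.802% of the summed FPKM of a library, of which Anxa2 alone gave 40.0% to 55.5%. That sum itself ran from 600578 to 910348 FPKM, and the 10 highest genes of a library held 11.4% to 40.4% of it. The members' share therefore also follows the make-up of each library, with 0.648% and 0.802% in the 2 KD libraries of 8 h. Replicate libraries correlated at 0.960 to 0.990 over the genes tested. The ratios of very low values placed the depth of the libraries at 79.98% to 116% of the first library of their table. This is a rough estimate, since only 40.1% to 51.8% of those ratios lay within 2% of their median. Ratios outside a preset range around equal depth were left out beforehand, so a larger difference in depth could not have shown. Lmnb1 was lower in KD than in control cells at each time point, at 27.8%, 24.5% and 32.8% of control at 0 h, 8 h and 24 h, with 4.37 and 7.52 FPKM in the 2 KD libraries of 24 h. Of 6 epithelial markers, 4 to 6 reached 1 FPKM in every group, and their summed level was 4326 to 7009 FPKM, while the summed levels of the 4 immune, 3 endothelial, 3 adipocyte and 4 fibroblast markers never exceeded 5.87 FPKM.

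In untreated parental cells the members ranged from 1774 ± 3.58 FPKM (SD, n = 2) for Anxa2 to 20.4 ± 0.864 FPKM for Anxa6. Between them came Anxa1 (610 ± 13.9), Anxa3 (531 ± 21.7), Anxa4 (463 ± 3.28), Anxa8 (344 ± 3.82), Anxa5 (204 ± 2.56), Anxa7 (51.7 ± 1.14), Anxa10 (45.1 ± 0.537) and Anxa11 (39.1 ± 0.911), and no neighbours in this order overlapped. After 24 h of TGF-β in parental cells the order had changed: Anxa2 stayed first at 1180 ± 19.1 FPKM, Anxa8 was second at 465 ± 16.9, Anxa4 was sixth at 149 ± 3.53, Anxa6 had passed Anxa11, and Anxa10 was last at 0.730 ± 0.126. Only Anxa3 and Anxa5 overlapped among the neighbours of that order. Anxa13 stood at 363 FPKM in untreated parental cells and Anxa9 near the filter at 1.31 FPKM.

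**Figure D1:**
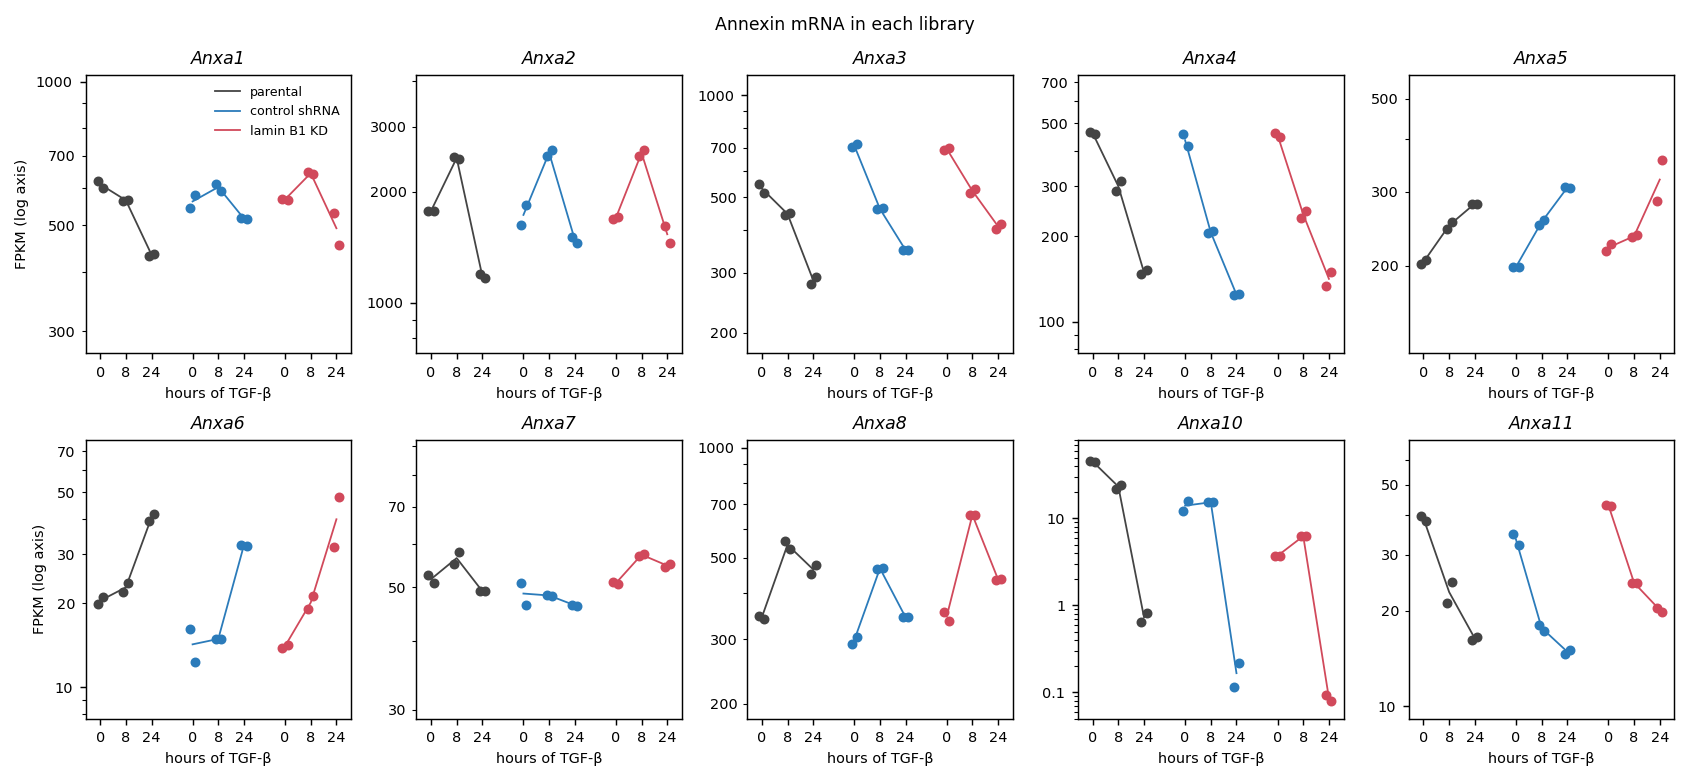
FPKM of each annexin (log axis, a separate range per gene) in every library at 0, 8 and 24 h of TGF-β, with points for the 2 libraries of a group and lines through the group means. Anxa10 went from 45.1 to 0.730 FPKM in parental cells, while Anxa6 went from 20.4 to 40.6 FPKM.

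The response of parental cells to TGF-β divided the tested members of the set. After 24 h, Anxa4, Anxa11, Anxa3, Anxa2 and Anxa1 were lower and Anxa6, Anxa5 and Anxa8 were higher, so that 5 of the 9 tested members fell and 3 rose, whereas Anxa7 did not pass the test (limma on log2(FPKM + 1), Benjamini-Hochberg adjusted p below 0.05). Over all 11309 genes tested in parental cells, 37.1% were called lower and 33.4% higher at this time, so counts of this size are common there. The median change of the 9 members was -0.49 on the log2 scale against -0.02 over all genes tested.

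Anxa4, which binds calcium and phospholipid at epithelial membranes, showed the largest fall among the tested members of the set. Anxa13, outside the set, fell further (log2 change -1.87 at 24 h). Parental levels of Anxa4 were 465 and 460 FPKM untreated, 288 and 313 after 8 h, then 147 and 152 after 24 h. The 3 time points did not overlap, and the log2 change at 24 h was -1.62 ± 0.048 (SE, adjusted p = 7.3e-07, limma). Anxa11, a partner of the EF-hand protein Pdcd6 that also tethers RNA granules to lysosomes, went from 39.8 and 38.5 FPKM to 21.1 and 24.7 FPKM and then to 16.2 and 16.5 FPKM. It was lower in both treated groups with no overlap, and its log2 change at 24 h was -1.21 ± 0.071 (adjusted p = 8.2e-06, limma). Anxa3, an annexin abundant in neutrophils, had 547 and 516 FPKM untreated, 445 and 449 after 8 h, then 278 and 292 after 24 h. It also stepped down at each time, by 0.89 ± 0.046 on the log2 scale at 24 h (adjusted p = 4.6e-06, limma).

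Anxa2 and Anxa1, the most abundant members in untreated parental cells, had different courses. Anxa2, which assembles plasminogen and its activator at the cell surface, had 1776 and 1771 FPKM untreated, 2490 and 2451 after 8 h, then 1194 and 1167 after 24 h. Its 8 h libraries were the highest and its 24 h libraries the lowest, with a log2 change of 0.48 ± 0.045 at 8 h (adjusted p = 0.0002, limma) and of -0.59 ± 0.045 at 24 h (adjusted p = 2.6e-05, limma). Anxa1, a ligand of formyl peptide receptors and an inhibitor of cytosolic phospholipase A2, had 619 and 600 FPKM untreated, 563 and 566 after 8 h, then 432 and 436 after 24 h. Its fall at 24 h was by 0.49 ± 0.038 on the log2 scale (adjusted p = 3e-05, limma).

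Anxa6, Anxa5 and Anxa8 went the other way. Anxa6, a member with a duplicated core that acts on endosomes and membrane cholesterol, had 19.8 and 21.0 FPKM untreated, 21.9 and 23.7 after 8 h, then 39.5 and 41.6 after 24 h. Most of its rise came after 8 h, and its log2 change at 24 h was 0.96 ± 0.055 (adjusted p = 7.5e-06, limma). Anxa5, the protein used to stain exposed phosphatidylserine, went from 202 and 206 FPKM to 245 and 254 FPKM and to 281 FPKM in each 24 h library, a log2 change of 0.46 ± 0.037 (adjusted p = 3.3e-05, limma). Anxa8, found on late endosomes, was highest at 8 h, with 556 and 530 FPKM against 347 and 341 FPKM untreated against 453 and 477 after 24 h. Its log2 change was 0.66 ± 0.045 at 8 h (adjusted p = 6.5e-05, limma) and 0.43 ± 0.045 at 24 h (adjusted p = 0.00012, limma).

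At 8 h in parental cells, 4 of the 9 members were called higher (Anxa2, Anxa5, Anxa7 and Anxa8) and 4 lower (Anxa1, Anxa3, Anxa4 and Anxa11), beside 22.4% of all genes called higher and 32.1% called lower. Anxa7, also named synexin for its part in granule fusion, had 52.5 and 50.9 FPKM untreated, 55.1 and 57.8 after 8 h, then 49.1 and 49.2 after 24 h. The calls of Anxa1 (log2 change -0.11, adjusted p = 0.044) and Anxa7 (0.12, adjusted p = 0.036, limma) at 8 h were lost in 6 and 4 of 8 alternatives, with adjusted p of 0.042 to 0.65 and 0.014 to 0.15. Among these, leaving out replicate 1 of 0 h or either 8 h library ended the call of Anxa1, and leaving out either 0 h library or replicate 2 of 8 h ended that of Anxa7. For parental cells the replicate number is only the order of the columns, since the labels give none. Anxa6 missed the threshold at 8 h (0.15, adjusted p = 0.054, limma). Between 8 h and 24 h, 7 of the 9 members were called lower and 2 (Anxa5 and Anxa6) higher, beside 24% and 27.7% of all genes. The median over the members was -0.38 on the log2 scale against 0.02 over all genes. The fall of Anxa8 over this interval (-0.22, adjusted p = 0.0055) was no longer called without replicate 1 of 24 h (-0.19) or with quantile normalization (-0.13), and the rise of Anxa5 (0.17, adjusted p = 0.0072, limma) was not called without either 24 h library, with adjusted p of 0.0055 to 0.054 and 0.002 to 0.052 over the 8 alternatives of each.

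Anxa10 had the lowest level of the 10 members at 24 h in all 3 kinds of cell. In parental cells it was at 45.5 and 44.7 FPKM untreated, 22.04 and 24.4 after 8 h, then 0.641 and 0.819 after 24 h. The 24 h mean was 1.62% of the untreated mean, and the log2 change was -0.93 at 8 h and -4.74 at 24 h. In control shRNA cells it was at 12.01 and 16.0 FPKM untreated, at 15.3 FPKM in each 8 h library, and at 0.115 and 0.217 FPKM at 24 h. There the 8 h libraries lay inside the range of the untreated ones, and the 24 h mean was 1.19% of the untreated mean. In lamin B1 KD cells it was at 3.69 and 3.74 FPKM untreated, 6.26 and 6.24 after 8 h, then 0.0925 and 0.0790 after 24 h. The KD libraries were thus higher at 8 h than at 0 h, and their 24 h mean was 2.31% of the untreated mean. KD cells held 26.5% of the control level at 0 h, 40.8% at 8 h and 51.6% at 24 h, and the KD and control libraries did not overlap at any time. At 24 h every shRNA library was at or below 0.217 FPKM, so the added constant of 1 FPKM dominates the log2 difference of -0.10 between KD and control, which was -0.49 with a constant of 0.1 FPKM. The untreated level of Anxa10 was 45.1 FPKM in the parental table and 14.0 FPKM in control shRNA cells, values from tables prepared separately.

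In control shRNA cells the directions at 24 h were those of parental cells for the 7 members called there. Anxa4, Anxa11, Anxa3 and Anxa2 were called lower and Anxa6, Anxa5 and Anxa8 higher, whereas Anxa1 (-0.12, adjusted p = 0.14) and Anxa7 (-0.07, adjusted p = 0.19, limma) did not pass the test. That is 4 of 9 lower and 3 of 9 higher, beside 45.1% and 25.5% of all 11450 genes tested in the shRNA table. In lamin B1 KD cells, 4 members (Anxa4, Anxa11, Anxa3 and Anxa1) were lower and 3 (Anxa6, Anxa5 and Anxa8) higher at 24 h, beside 43.3% and 28.6% of all genes. Over all genes tested the median change in the shRNA table was -0.14 at 8 h and -0.13 at 24 h in control cells and -0.13 and -0.10 in KD cells, and the members' changes stand beside that shift. At 24 h the members' median was -0.12 in control and -0.15 in KD cells, close to that of all genes. With quantile normalization, 3900 genes were higher and 3901 lower at 24 h in control cells (2924 and 5169 without it), 4126 and 4103 in KD cells (3277 and 4959), 3082 and 3624 at 8 h in control cells (2223 and 5137), and 3432 and 4036 at 8 h in KD cells (2629 and 5132).

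The 24 h changes of control and KD cells are given side by side for the tested members with the largest fall and rise. Anxa4 had 458 and 415 FPKM untreated against 124 and 126 after 24 h in control cells, and 463 and 448 FPKM untreated against 134 and 149 after 24 h in KD cells. The log2 changes were -1.80 ± 0.062 (adjusted p = 3.2e-08) and -1.68 ± 0.062 (adjusted p = 4.1e-08, limma), with no overlap in either. Anxa6 had 16.1 and 12.4 FPKM untreated against 32.4 and 32.2 after 24 h in control cells, with a log2 change of 1.14 ± 0.17 (adjusted p = 0.0003, limma). In KD cells it had 13.9 and 14.2 FPKM untreated against 31.8 and 48.1 after 24 h, so that the pair of KD 24 h libraries stood apart from each other. The call of Anxa2 in control cells at 24 h (-0.22, adjusted p = 0.022) was lost without replicate 2 of 0 h or either 24 h library and turned to 0.0097 with quantile normalization (adjusted p = 0.95). Its adjusted p was 0.0058 to 0.95 over 9 alternatives. The call of Anxa1 in KD cells at 24 h (-0.20, adjusted p = 0.02, limma) was lost without either 0 h library or replicate 2 of 24 h, where it was -0.09, with adjusted p of 0.00037 to 0.11 over 9 alternatives. Without replicate 1 of KD 24 h, Anxa2 was called lower there (-0.23), and without replicate 2 of control 0 h, Anxa7 was called lower at 24 h in control cells (-0.13).

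At 8 h, 3 of 9 members were higher (Anxa2, Anxa5 and Anxa8) and 3 lower (Anxa3, Anxa4 and Anxa11) in control cells, beside 19.4% and 44.9% of all genes. In KD cells 5 were higher (Anxa1, Anxa2, Anxa6, Anxa7 and Anxa8) and 3 lower (Anxa3, Anxa4 and Anxa11), beside 23% and 44.8% of all genes. The members' median was 0.07 in control and 0.17 in KD cells on the log2 scale. Anxa2 had 1620 and 1842 FPKM untreated against 2505 and 2601 after 8 h in control cells, and 1692 and 1709 FPKM against 2497 and 2602 FPKM in KD cells. It was therefore higher at 8 h and not at 24 h in all 3 kinds of cell, with log2 changes at 8 h of 0.48, 0.56 and 0.58. The KD calls of Anxa1 (0.18, adjusted p = 0.036) and Anxa6 (0.49, adjusted p = 0.031, limma) at 8 h were each lost when any of the 4 libraries was left out, with adjusted p of 0.0039 to 0.18 and 0.0012 to 0.14 over 9 alternatives.

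**Figure D2:**
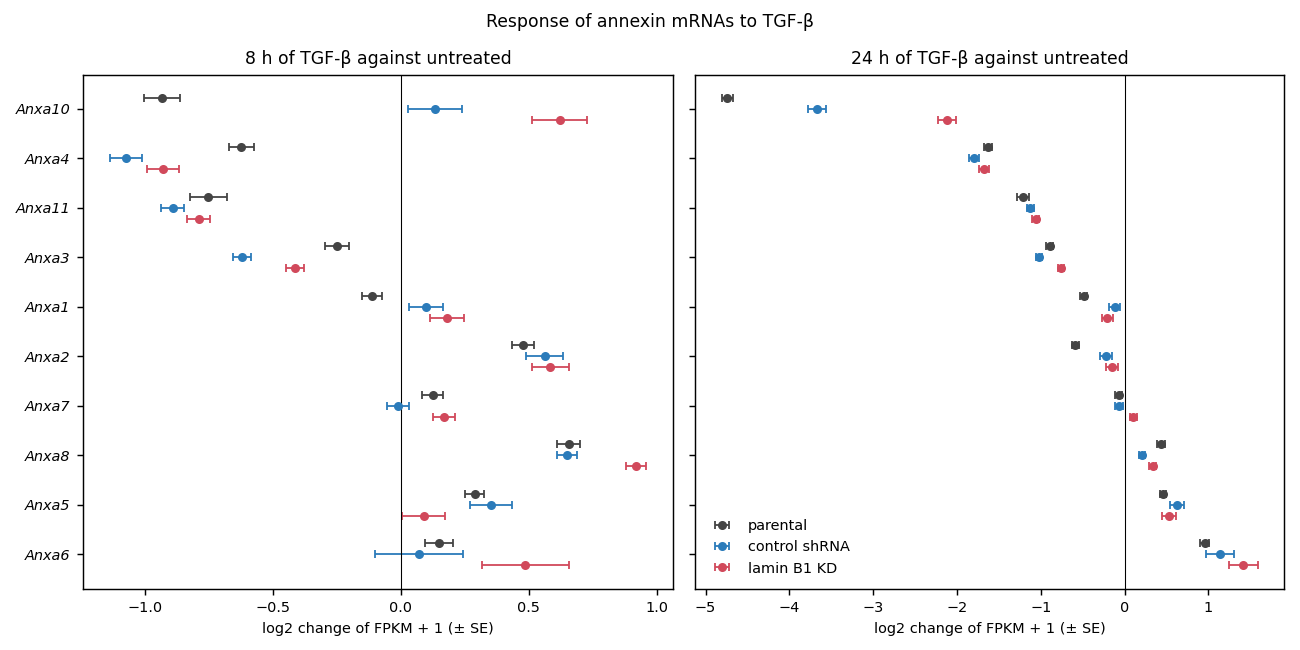
Log2 change of FPKM + 1 (± SE, n = 2 against 2) at 8 h and 24 h of TGF-β against untreated cells of the same kind, for each annexin in parental, control shRNA and lamin B1 KD cells. At 24 h Anxa10, Anxa4, Anxa11 and Anxa3 lie left of 0 and Anxa8, Anxa5 and Anxa6 right of 0 in all 3 kinds of cell.

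The knockdown was then compared with control cells at each time point. Anxa11 and Anxa8 were higher in KD cells at all 3 times, Anxa7 and Anxa3 at 8 h and 24 h, and Anxa4 at 8 h, and no tested member was called lower. That is 2, 5 and 4 of 9 members higher at 0 h, 8 h and 24 h, beside 10.6%, 19.3% and 16.8% of all genes called higher. The count of the 9 called lower by limma was 0 at each time, and 0 also at an unadjusted p under 0.05, beside 9.09%, 16.5% and 11.5% of all genes. The members' median difference was 0.06, 0.21 and 0.23 on the log2 scale, against -0.01, 0.01 and 0.02 over all genes.

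Anxa11 had 34.8 and 32.4 FPKM in control and 43.3 and 42.9 FPKM in KD cells at 0 h, 18.0 and 17.3 FPKM against 24.5 FPKM in each KD library at 8 h, and 14.6 and 15.1 FPKM against 20.4 and 19.9 FPKM at 24 h. The KD libraries were above the control libraries at every time, by 0.35 ± 0.045, 0.45 ± 0.045 and 0.41 ± 0.045 on the log2 scale (adjusted p = 0.0015, 0.00023 and 0.00057, limma). Anxa8 had 291 and 305 FPKM against 357 and 336 FPKM at 0 h, 466 and 470 FPKM against 656 and 654 FPKM at 8 h, and 344 FPKM in each control library against 435 and 439 FPKM at 24 h. It too was above control at every time, by 0.21 ± 0.039, 0.48 ± 0.039 and 0.34 ± 0.039 (adjusted p = 0.0075, 9.5e-05 and 0.00075, limma). The call at 0 h was lost without replicate 1 of KD 0 h (0.17), with adjusted p of 0.0079 to 0.081 over 9 alternatives. Anxa7 had 48.5 and 48.1 FPKM in control and 57.1 and 57.5 FPKM in KD cells at 8 h, a difference of 0.24 ± 0.044 (adjusted p = 0.0035, limma), and was 0.23 ± 0.044 higher at 24 h (adjusted p = 0.0057, limma). Anxa3 had 461 and 464 FPKM in control and 515 and 530 FPKM in KD cells at 8 h, and 350 and 349 FPKM against 403 and 418 FPKM at 24 h. These differences were 0.18 ± 0.035 (adjusted p = 0.0054) and 0.23 ± 0.035 (adjusted p = 0.0023, limma). The Anxa3 call at 24 h was lost when only the groups compared were fitted (adjusted p = 0.055), with adjusted p of 0.0018 to 0.055 over 9 alternatives. The call of Anxa4 at 8 h (0.21, adjusted p = 0.028, limma) was lost when any of the 4 libraries was left out, with adjusted p of 0.011 to 0.16 over 9 alternatives.

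Replicate 1 of KD 24 h, the library with the lower Lmnb1 level, affected how many members were called at 24 h. In it Anxa6 was at 31.8 FPKM against 48.1 FPKM in replicate 2, Anxa5 at 285 against 356 FPKM and Anxa1 at 532 against 455 FPKM. Without it, 8 of 9 members were called, with Anxa4 (0.26), Anxa5 (0.21) and Anxa6 (0.56) added as higher and Anxa1 (-0.18) as lower. Anxa2 did not pass the test at any time, and its difference was 0.05 or less in size on the log2 scale, with an SE of 0.072. Without replicate 1 of control 0 h, Anxa7 was also called higher in untreated KD cells (0.13).

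**Figure D3:**
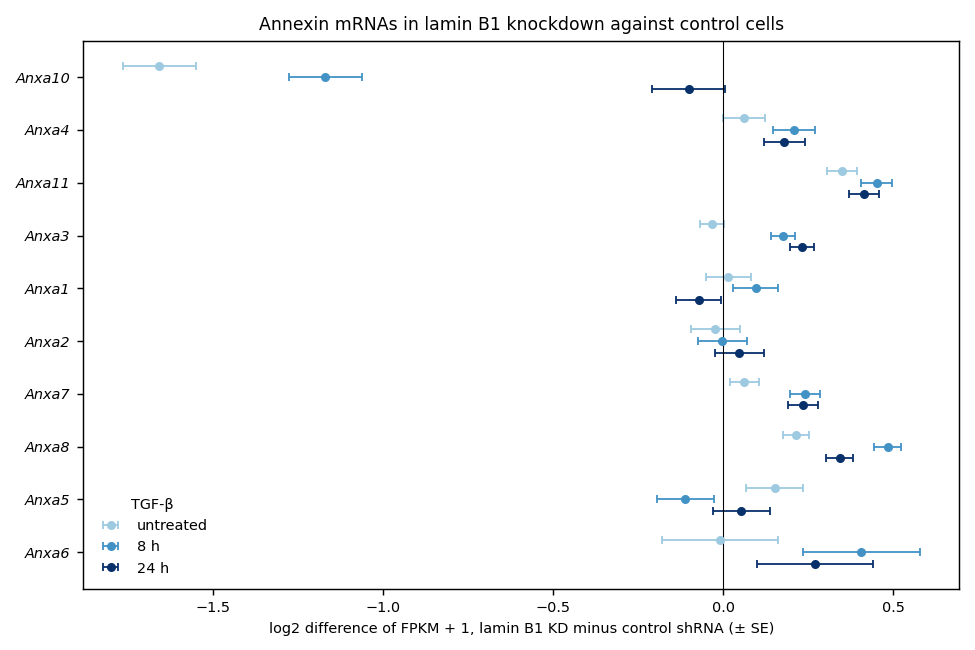
Log2 difference of FPKM + 1 (± SE, n = 2 against 2) between lamin B1 KD and control shRNA cells for each annexin, untreated and after 8 h and 24 h of TGF-β. Anxa11, Anxa8, Anxa7 and Anxa4 lie right of 0 at all 3 times, of which Anxa11 and Anxa8 were called at each. Anxa10 lies at -1.66, -1.17 and -0.10.

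Whether the TGF-β response itself differed between KD and control cells was tested as an interaction. At 8 h, Anxa8 alone of the 9 members was called, with a response 0.27 ± 0.056 larger in KD cells (adjusted p = 0.038, limma), beside 2.45% of all genes called higher and 1.61% lower. At 24 h, Anxa3 alone was called, with a fall smaller by a difference of 0.26 ± 0.05 (adjusted p = 0.028, limma), beside 2.73% higher and 1.98% lower. Both calls were lost in several alternatives, 9 of 13 for Anxa8, with adjusted p of 0.035 to 0.16, and 6 of 13 for Anxa3, with adjusted p of 0.0066 to 0.78. Each was lost without either 0 h KD library and without either treated control library, and Anxa8 also without either treated KD library. With the replicate number as a block, the adjusted p of Anxa8 was 0.056. For Anxa10 the difference between the responses was 0.49 at 8 h and 1.56 at 24 h, given without a test. Its 24 h means were 0.166 FPKM in control and 0.0858 FPKM in KD cells, far below the added constant of 1 FPKM. The value of 1.56 therefore largely repeats the untreated difference of -1.66 with its sign turned. As shares of the untreated means, the 24 h means were 1.19% in control and 2.31% in KD cells.

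Outside the set, Anxa13 and Anxa9 were both called lower at 24 h in all 3 kinds of cell. Anxa13, an epithelial annexin of apical membranes, went from 364 and 361 FPKM to 190 and 213 FPKM and then to 93.8 and 103 FPKM in parental cells. Its log2 change at 24 h was -1.87 ± 0.066 in parental (adjusted p = 1.2e-06), -2.56 ± 0.075 in control (adjusted p = 1.3e-08) and -2.34 ± 0.075 in KD cells (adjusted p = 2e-08, limma). In KD cells it was above control at 24 h (0.28, adjusted p = 0.026, limma). Anxa9 was between 0.669 and 1.68 FPKM in all libraries, near the filter. Its log2 change at 24 h was -0.42 in parental (adjusted p = 0.0016), -0.29 in control (adjusted p = 0.0065) and -0.39 in KD cells (adjusted p = 0.0012, limma), and it was also called lower at 8 h in each.

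Deposited peaks at the annexin genes were then read on mm9. A lamin B1 peak over the gene or the 2500 bp before it was found at 0 members at 0 h, at Anxa4 alone at 8 h and at 0 members at 24 h. The shares of the 21213 placed genes with such a peak were 19.7%, 38.6% and 29.2%. Among genes with a mean of at least 10 FPKM in parental cells of the same time the shares were 37.8%, 60.7% and 48.1%, and 10, 10 and 9 of the members were in that class. The Anxa4 peak spanned the TSS (chr6:86743281-86744050), with a score of 52.4, and 5.46% of the 8 h list had a lower score. It was absent from the 8 h list when only peaks at or above the median score were kept. Another lamin B1 peak was listed at all 3 times about 60.5 kb from the Anxa4 TSS, beyond its 3′ end, and it covers the start of Gmcl1. With 1 library per time, no test was possible, and 0 of 10 genes says only that no peak passed the authors' threshold there.

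ATAC peaks within 500 bp of the TSS were found at Anxa5 and Anxa8 at 0 h, at Anxa5, Anxa7 and Anxa11 at 8 h, and at every member but Anxa10 at 24 h. These are 2, 3 and 9 of 10 genes, against 30.4%, 24.8% and 46.7% of placed genes. Among genes of at least 10 FPKM at the same time the shares were 64.0%, 51.8% and 91.0%, against 2 of 10, 3 of 10 and 9 of 9 members in that class. The 24 h list was also the longest, with 33811 peaks against 9782 and 10340. When the lists were cut to equal length by score, 2 members remained with a promoter peak at each time, Anxa5 and Anxa8 at 0 h, Anxa5 and Anxa11 at 8 h, and Anxa5 and Anxa7 at 24 h. Anxa5 was the only member with a promoter peak at all 3 times. That peak (chr3:36373945-36375602 at 24 h, score 598, with 97.3% of the list lower) also lies within 500 bp of the start of 1810062G17Rik. Anxa5 further had a peak in an intron, 8.15 kb downstream of the TSS at 24 h, and in an exon near its 3′ end, each at all 3 times.

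Anxa10 had a single ATAC peak within its 66.1 kb gene or 10 kb around it, in an intron 4.72 kb downstream of the TSS (chr8:64596977-64597415). It was listed at 24 h, when the mRNA was lowest, with a score of 50.9, and 0.946% of that list had a lower score. Anxa2, whose mRNA was highest at 8 h, had a promoter peak only in the 24 h list (score 53.6). An intronic peak 4.5 kb from the TSS was listed at 0 h, and a wider intronic peak of 24 h (score 176) covered most of it. A peak over an exon lay 14.1 kb from the TSS at 8 h and 24 h. The 24 h list also held an intronic peak 19.3 kb from the TSS and a peak 10.7 kb upstream. Anxa6, which rose at 24 h, and Anxa3, which fell, both had promoter peaks in the 24 h list alone, with scores of 179 and 252. Promoter peaks at 24 h were thus listed at members that rose and at members that fell.

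**Figure D4:**
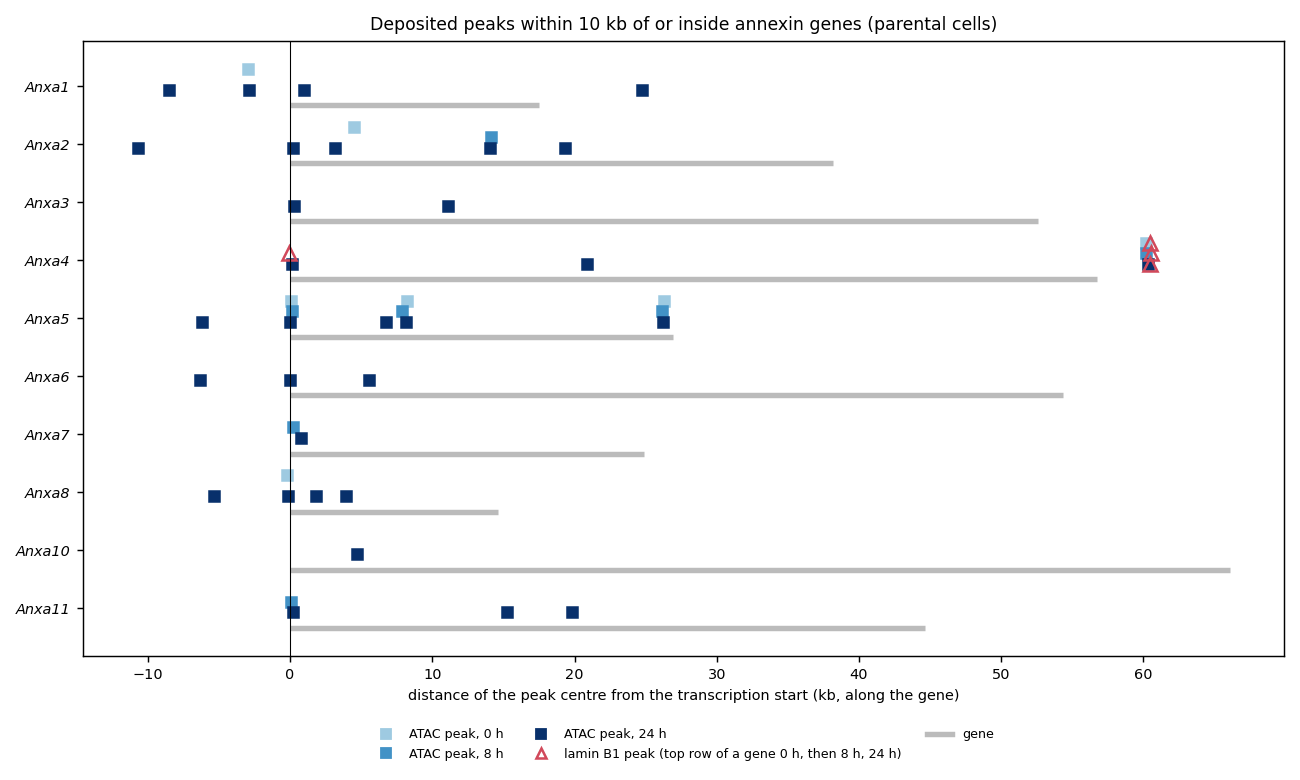
Position of deposited ATAC (squares, by time) and lamin B1 (open triangles) peak centres relative to the TSS of each annexin, in kb along the gene, with grey bars for the genes. Squares of 24 h sit at the TSS of every gene but Anxa10, and the triangles lie at the Anxa4 start and near 60.5 kb, past its 3′ end.

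Partners of the annexins were read from 5 lists of genes drawn up from general knowledge. Of 6 S100 proteins, which bind annexin tails, 5 fell at 24 h in parental cells and none rose, beside 37.1% lower and 33.4% higher over all genes, with a median of -0.72 on the log2 scale against -0.02 over all genes. Among those 5, 1 gene lay near the filter, at 1.04 FPKM untreated and 0.156 FPKM at 24 h. That gene was also among the S100 genes called lower at 24 h in control and KD cells. S100a6 went from 11997 FPKM to 4743 FPKM (log2 change -1.34 ± 0.1, adjusted p = 2.6e-05) and S100a4 from 2367 to 972 FPKM (-1.28 ± 0.066, adjusted p = 4.6e-06, limma). In control cells all 6 fell at 24 h, beside 45.1% of all genes, and in KD cells 4 fell, beside 43.3%, and S100a11 was called higher (0.11, adjusted p = 0.043, limma), a direction that turned with quantile normalization. No other partner called in these 5 lists turned direction under that scaling in any comparison, although calls were lost in some comparisons and gained in others. The S100 calls for the 24 h difference in response between KD and control cells went from 2 to 1. S100a10, the partner of Anxa2, had a log2 change of -0.63 at 24 h in parental cells (adjusted p = 3.5e-05, limma), beside -0.59 for Anxa2. In untreated KD cells S100a4 was lower than in control by 0.77 on the log2 scale (adjusted p = 0.0011), and its 24 h response differed by 0.92 ± 0.13 (adjusted p = 0.0096, limma).

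The list of 7 EF-hand and scaffold proteins held calpain subunits as well as proteins that bind annexins. Of these 7, 4 rose at 8 h in parental cells and none fell, and those that rose were calpain subunits and Sri. At 24 h 5 rose and 1 fell, with a median of 0.27 at both times. Over all genes, higher calls made up 22.4% (8 h) and 33.4% (24 h), and lower calls 32.1% and 37.1%. The calpain subunit Capn2 went from 86.7 to 163 FPKM at 8 h (0.90 ± 0.059, adjusted p = 5.7e-05), and Sri, the sorcin that binds Anxa7, from 63.3 to 90.5 FPKM (0.51 ± 0.039, adjusted p = 9.8e-05, limma). Sri was also 0.18 higher in KD than in control cells at 24 h (adjusted p = 0.013, limma). Of these 7, none was called in untreated KD cells against control, 3 were higher at 8 h and 4 at 24 h, beside 10.6%, 19.3% and 16.8% of all genes called higher. With quantile normalization these counts of higher calls were 1, 4 and 2.

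The 9 tested membrane repair genes were mixed, with 1 higher and 5 lower at 24 h in parental cells and a median of -0.20, beside 33.4% and 37.1% of all genes. Cav1, the main protein of caveolae, went from 141 to 82.7 FPKM (-0.77 ± 0.04, adjusted p = 5e-06, limma). Of 7 genes listed for exposure of phosphatidylserine, to which Anxa5 binds, 2 rose and 3 fell at 24 h, shares near the 33.4% and 37.1% of all genes, with a median of -0.07. Whether each listed gene acts in that exposure in these cells was not tested. Plscr3 went from 11.9 to 26.8 FPKM (1.11 ± 0.049, adjusted p = 2.6e-06), and Plscr1 from 90.5 to 56.6 FPKM (-0.67 ± 0.087, adjusted p = 0.00039, limma). The scramblase gene Ano6 was lower in untreated KD cells, at 31.8 against 52.7 FPKM in control (-0.71 ± 0.044, adjusted p = 4.2e-05, limma). Of the 6 tested receptor and enzyme partners of Anxa1 and Anxa2, 5 rose at 24 h in parental cells and none fell, with a median of 1.24 on the log2 scale, beside 33.4% higher, 37.1% lower and a median of -0.02 over all genes. Ptgs2, which acts after phospholipase A2, went from 9.75 to 51.4 FPKM (2.28 ± 0.068, adjusted p = 7.3e-07, limma). Pla2g4a, that phospholipase, was lower in KD cells at 8 h, at 26.2 against 46.0 FPKM (-0.79 ± 0.092, adjusted p = 0.00047, limma).

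Among 10842 genes tested in both tables, those whose pattern was most like Anxa10 by the lower of 2 Pearson correlations, over the 6 parental and the 12 shRNA libraries on the log2 scale, were Atp5a1, Prpsap2, Grhpr, Tpi1 and Depdc1b. The correlations were 0.977 to 0.998 in parental and 0.969 to 0.977 in shRNA libraries, and they rest on libraries that share groups and on the 24 h libraries being low. The sizes were unlike: Atp5a1, a subunit of the ATP synthase, went from 457 to 326 FPKM at 24 h in parental cells, and Tpi1, a glycolytic enzyme, from 494 to 256 FPKM, whereas Anxa10 went to 1.62% of its untreated level. Depdc1b was at 8.82 FPKM in untreated control and 6.36 FPKM in untreated KD cells. Within the family the parental pattern of Anxa10 ran with those of Anxa1, Anxa3 and Anxa4 (r = 0.998, 0.99 and 0.98) and against that of Anxa6 (r = -0.99), and over the shRNA libraries these were 0.73, 0.65, 0.66 and -0.88, over 6 and 12 libraries that share treatment.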

How the data were processed

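RNA-seq (18 libraries), lamin B1 ChIP-seq and ATAC-seq (3 peak lists each) were used, and Hi-C was not analysed here. The deposited RNA-seq values were FPKM tables made by the authors, and the submitters' notes name mm9, Bowtie, TopHat and Cufflinks without roles, with the versions not given in the sources used here. The tables had no header line, and their columns were matched by the deposited names, with parental replicates unnumbered. The deposited peak lists carry a score whose caller is not given in the sources used here, other than MACS in the peak names, and the 2 parallel ChIPs of a time point were mixed before sequencing. Groups came from the labels, 2 biological replicates each per the study's methods.

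From the FPKM, log2(FPKM + 1) was fitted with limma 3.58.1 (R 4.3.3) for genes of at least 1 FPKM in at least 2 libraries, with 1 fit per table over all its groups, a mean-variance trend and Benjamini-Hochberg adjustment over all genes tested (called below 0.05). The script was tested on simulated data. FPKM hold no counts, so the depth is unknown and no counting interval was given. Genes were placed by symbol on GENCODE M1 (21213 of 24892 matched), and peaks were assigned by 1 bp of overlap. Alternatives were a constant of 0.1 FPKM, no filter, quantile normalization, only the groups compared, leaving out each library, the replicate number as a block, and for peaks the median score, lists of equal length, other windows and 50% overlap. Named genes were the annexins, Lmnb1, at most 3 called genes of largest change per partner list and family of contrasts, and the 5 genes most like Anxa10, except 1 partner gene that is not reported here by name. The members and lists were chosen with earlier results of these data known. Unused columns of per-sample values numbered 0.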

Additional observations from a re-analysis of the deposited data

Results flagged for a closer look

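Anxa8 was flagged because its 8 h response to TGF-β was 0.27 larger on the log2 scale in lamin B1 KD than in control shRNA cells by the interaction test, with changes of 0.92 and 0.65. All 4 treated libraries were above the untreated ones of their kind. Anxa3 was flagged because its 24 h response differed by 0.26, with changes of -0.76 in KD and -1.02 in control cells. With quantile normalization the difference for Anxa3 was 0.04. No group had 4 or more libraries, so a library far from its group could not be flagged.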

How the results depend on the processing

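Of 66 called differences of annexins other than Anxa10, 53 stayed past the threshold in the same direction under every alternative run. Reversed in direction with quantile normalization were Anxa1 at 8 h in parental cells (-0.11 to 0.021) and Anxa2 at 24 h in control cells (-0.22 to 0.0097). Quantile normalization moved the count of members called for the difference in response from 1 to 0 at 8 h and from 1 to 0 at 24 h, and over all genes the split of the 24 h difference from 313 higher and 227 lower to 246 and 267. With only the groups compared, the count was 1 in place of 2 for untreated KD against control and 0 in place of 1 for the 24 h difference. Leaving out each library gave counts of 1 to 3 for untreated KD against control, 4 to 8 for KD against control at 24 h, 0 to 2 for the 8 h difference and 0 to 3 for the 24 h difference. In the shRNA table, deviations of libraries with the same replicate number correlated at -0.14 to 0.37 over 15 pairs of groups, the highest for control and KD at 24 h, and not above 0.1 in every pair, so the number was not taken to pair the samples. The parental columns carry no number. With the replicate block the count for the 8 h difference was 0 in place of 1 and calls over all genes were 284 in place of 465. It changed no other call. At or above the median score, lamin B1 peaks at 8 h were at 0 members, and ATAC promoter peaks were at 1, 1 and 5 members at 0 h, 8 h and 24 h. With lists of equal length lamin B1 peaks were at 0 members at 8 h and ATAC peaks at 2 members at 24 h. The causes were not tested. A lone library of a group was assumed to vary like the others. The depth is unknown, and the values of Anxa10 at 24 h lie where an FPKM is least precise.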
